A study of Arabidopsis thaliana with 4 samples.

Results

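The Casparian strip and suberin genes described here are 9 Arabidopsis loci chosen by locus code: the 4 CASP genes CASP1, CASP2, CASP4 and CASP5, the transcription factor gene MYB36, the dirigent-domain gene ESB1, the peroxidase gene PER64, the acyltransferase gene GPAT5 and the cytochrome P450 gene CYP86A1. All 9 were among the 27416 gene rows of the RPKM tables (RPKM, reads scaled by transcript length and by library depth). All 9 passed the filter of at least 1 RPKM in at least 2 libraries, so none was left out of the test. The 4 libraries are poly(A) RNA of whole Arabidopsis thaliana seedlings, ecotype Col-0, in 2 groups. CNT1 (n = 2) has the genotype 35S::CNT1-NLS-YFP;cry1, in which the 35S promoter of cauliflower mosaic virus drives the N-terminal part of the blue light receptor cryptochrome 1, joined to a nuclear targeting signal and the fluorescent protein YFP. CNT1-G283E (n = 2) has the genotype 35S::CNT1-G283E-NLS-YFP;cry1, with the same fusion carrying the G283E substitution. Both groups carry the cry1 mutation, both express their transgene broadly rather than in 1 cell type, and the labels do not say how many transgenic lines each group stands for. Seeds spent 3 days in the cold and 12 h in white light, then 4 days under blue light at 15 μmol/m2/s, 4.5 days of growth in all. The question addressed is how transcript levels differ when the fusion carries G283E, and every log2 fold change is CNT1 minus CNT1-G283E.

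The Casparian strip is a belt of lignin in the walls between neighbouring endodermal cells of the root, and it closes the path through the cell walls between soil and vascular tissue. CASP proteins form a membrane domain that marks where the belt is built. Peroxidases such as PER64, with the dirigent protein ESB1, polymerise monolignols there, and MYB36 switches on the CASP genes together with ESB1 and PER64. Later in development endodermal cells lay down suberin lamellae, a polyester of fatty acids, glycerol and phenolics, for which CYP86A1 oxidises fatty acids at their end and GPAT5 joins acyl chains to glycerol. The endodermis is a single layer among the many cell types of a whole seedling.

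The RPKM values rested on 28524534 and 28098772 reads in CNT1 and on 27065174 and 24436863 reads in CNT1-G283E, as recovered from the values themselves. At these depths the 9 genes had 189 to 4692 reads per library, and the exact Poisson 95% interval of a value had a half-width of 2.87% to 14.5%, which covers counting error only. Among 14404 genes averaging at least 5 RPKM, the median gap between replicates was 3.85% for CNT1 and 5.44% for CNT1-G283E. CRY1 (AT4G08920), the source of both transgenes, was read at 823 and 825 RPKM in CNT1, against 1152 and 1036 RPKM in CNT1-G283E. Its value cannot separate transgene from endogenous transcript and does not check the labels. Nothing in the labels says that replicates came from separate cultures, and the spread behind the p-values is that of these 2 samples a group and could be technical. Over all 19201 genes tested with limma, 60.0% were called at an adjusted p of 0.05, 31.1% higher and 29.0% lower in CNT1, and the median log2 fold change was 0.025.

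Upstream sequences were read from TAIR10.1 for 4 of the genes, to show the promoters of the strip gene with the largest fold, of a second CASP gene, of their regulator MYB36, and of the suberin gene GPAT5. Each run is the 250 bases before the annotated gene start, 5′ to 3′ in the direction of transcription. Capitals mark matches to CACGTG (the G-box), ACCNAAC (an AC element of MYB factors), CAACTG or TAACTG (MYB core sites), searched on both strands, and no matches overlapped.
CASP5 (chr5:4966761-4967010, plus strand): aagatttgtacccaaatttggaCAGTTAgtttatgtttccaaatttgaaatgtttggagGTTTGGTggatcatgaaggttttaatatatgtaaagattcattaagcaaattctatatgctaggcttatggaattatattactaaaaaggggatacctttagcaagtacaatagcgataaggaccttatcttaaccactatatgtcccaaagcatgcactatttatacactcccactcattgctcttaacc
CASP4 (chr5:1876884-1877133, plus strand): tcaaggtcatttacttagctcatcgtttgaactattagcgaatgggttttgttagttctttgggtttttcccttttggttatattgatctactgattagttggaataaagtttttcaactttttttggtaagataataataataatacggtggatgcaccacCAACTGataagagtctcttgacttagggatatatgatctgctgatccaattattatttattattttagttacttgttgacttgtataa
MYB36 (chr5:23334517-23334766, plus strand): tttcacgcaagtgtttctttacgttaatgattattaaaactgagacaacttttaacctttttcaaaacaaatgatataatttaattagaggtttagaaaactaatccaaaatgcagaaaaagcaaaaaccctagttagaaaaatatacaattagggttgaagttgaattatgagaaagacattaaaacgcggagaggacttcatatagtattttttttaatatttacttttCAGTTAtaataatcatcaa
GPAT5 (chr3:3595444-3595693, plus strand): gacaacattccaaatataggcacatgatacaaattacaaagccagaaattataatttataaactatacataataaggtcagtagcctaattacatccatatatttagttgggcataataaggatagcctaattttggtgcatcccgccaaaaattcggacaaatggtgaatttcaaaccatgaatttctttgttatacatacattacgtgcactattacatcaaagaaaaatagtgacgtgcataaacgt
CACGTG was in none of the 9 upstream windows, against 6.49% of 27443 windows of the same length before protein-coding genes. ACCNAAC was in 2 of the 9 (CASP5 and ESB1), against 14.5% of all windows. TAACTG was also in 2 (CASP5 and MYB36), against 8.12%, and CAACTG in 1 (CASP4), against 6.21%. In CASP5 the ACCNAAC match starts 191 bases and the TAACTG match 228 bases before the gene start, and in CASP4 the CAACTG match starts 88 bases before it. The windows of CASP1, CASP2, PER64, GPAT5 and CYP86A1 held none of the 4 motifs. These are letter matches and show no binding.

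All 4 CASP genes were lower in CNT1, by 2.64-fold to 4.62-fold on the mean RPKM, and the groups did not overlap in any of them. Of all genes tested, 38.1% had lower, non-overlapping values in CNT1, and 5.25% were called lower with at least a 2-fold change on the log2(RPKM + 1) scale. All 4 CASP genes were in the second of these classes. In whole seedlings, fewer endodermal cells and less RNA per cell cannot be told apart.

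CASP1 (AT2G36100, chromosome 2, 15159591 to 15160799 in TAIR10.1, minus strand, 3 exons) was the most abundant of the 9 genes in both groups. It was read at 71.3 and 76.8 RPKM in CNT1, against 189.8 and 200.4 RPKM in CNT1-G283E. Both CNT1 libraries lie far below both CNT1-G283E libraries. The CNT1 mean was 74.0 ± 3.88 RPKM, against 195 ± 7.53 RPKM for CNT1-G283E (SD, n = 2 each). The log2 fold change was -1.39 ± 0.050 (SE; limma adjusted p = 4.18e-07).

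CASP5 (AT5G15290, chromosome 5, 4967011 to 4968092, plus strand, 3 exons) had the largest fold of the 9. It was read at 33.8 and 38.8 RPKM in CNT1, against 157 and 179 RPKM in CNT1-G283E. The lower of the CNT1-G283E libraries is still far above the higher CNT1 library. The log2 fold change was -2.18 ± 0.080 (SE; limma adjusted p = 4.43e-07), and only 0.255% of the genes tested had a lower one.

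CASP2 (AT3G11550, chromosome 3, 3638178 to 3639348, plus strand) was read at 32.7 and 29.5 RPKM in CNT1, against 78.6 and 90.3 RPKM in CNT1-G283E. Its log2 fold change was -1.41 ± 0.075 (SE; limma adjusted p = 2.49e-06). CASP4 (AT5G06200, chromosome 5, 1877134 to 1878324, plus strand), the least abundant of the 4 in both groups, was read at 10.9 and 13.3 RPKM in CNT1, against 35.8 and 36.4 RPKM in CNT1-G283E. Its log2 fold change was -1.51 ± 0.087 (SE; limma adjusted p = 3.77e-06). In both genes the CNT1 libraries were low and the CNT1-G283E libraries high, with no overlap.

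**Figure D1:**
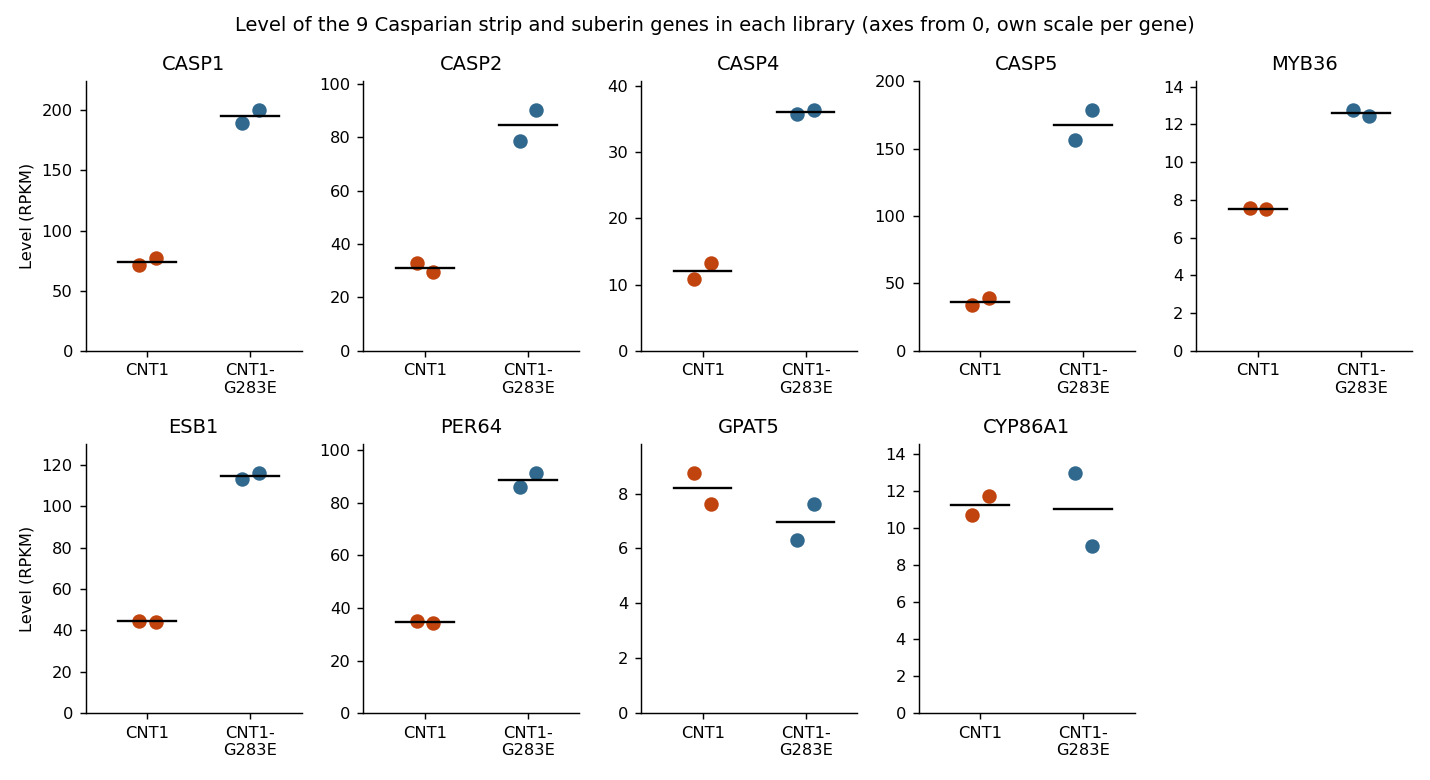
Level in RPKM (vertical axes from 0, a scale of its own for each gene) of the 9 genes in each library, with CNT1 left and CNT1-G283E right. Points are libraries and lines are group means (n = 2 each). In the 4 CASP genes, MYB36, ESB1 and PER64 both CNT1 points lie below both CNT1-G283E points, while the groups lie close together for GPAT5 and CYP86A1.

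The CASP genes are similar enough in sequence to ask whether their reads could be confused. Their coding sequences were 55.3% to 79.8% identical in pairs, CASP2 and CASP4 being the most alike and CASP2 and CASP5 the least. The longest stretch of identical bases shared by any 2 of their annotated transcripts was 20 bases, between CASP2 and CASP4. No source used here states the treatment of reads that match several genes.

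The makeup of the summed level of the 4 CASP genes differed between the libraries of the 2 groups. The sum was 149 and 158 RPKM in CNT1, against 461 and 506 RPKM in CNT1-G283E. CASP5 made up 22.8% and 24.5% of that sum in CNT1, against 34.0% and 35.3% in CNT1-G283E. CASP1 made up 47.9% and 48.4% in CNT1, against 41.2% and 39.6% in CNT1-G283E. The ratio of CASP5 to CASP1 within a library was 0.475 and 0.506 in CNT1, against 0.825 and 0.892 in CNT1-G283E. Ratios within a library do not depend on how libraries are scaled. CASP4 took 7.32% and 8.41% of the sum in CNT1, against 7.77% and 7.20% in CNT1-G283E, so its share overlapped between the groups. The order of the levels was CASP1, CASP5, CASP2 and CASP4 in all 4 libraries, and in CNT1 replicate 1 CASP5 and CASP2 were close, at 33.8 and 32.7 RPKM. With 2 libraries a group, an exact two-sided permutation test cannot go below p = 0.333, and no p is given for these shares.

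**Figure D2:**
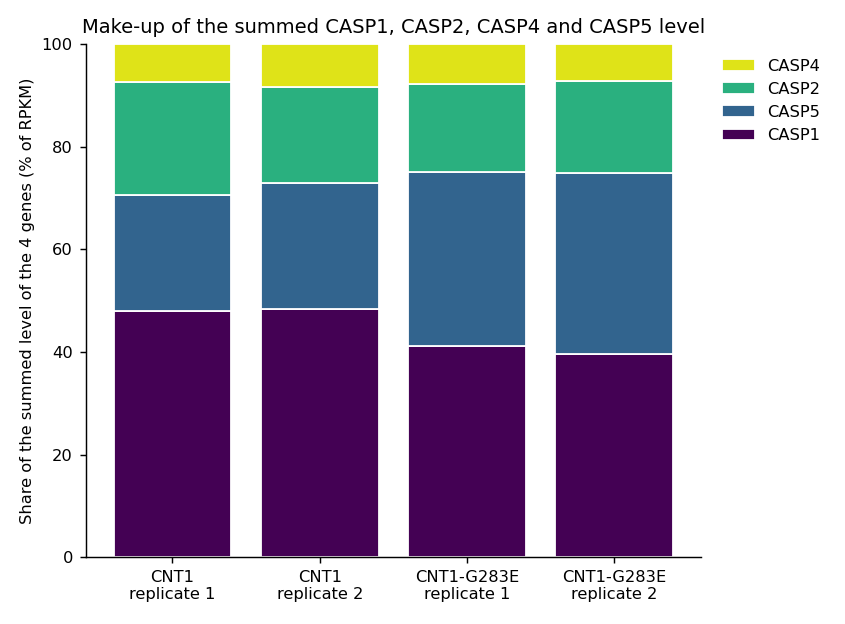
Share (% of summed RPKM, vertical axis from 0 to 100) of each CASP gene in the summed level of the 4 in a library, with the 2 CNT1 libraries left and the 2 CNT1-G283E libraries right. The CASP5 segment is 22.8% and 24.5% in CNT1 and 34.0% and 35.3% in CNT1-G283E.

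MYB36 (AT5G57620, chromosome 5, 23334767 to 23336632, plus strand, 3 exons), the regulator of the strip genes, was read at 7.55 and 7.50 RPKM in CNT1, against 12.8 and 12.5 RPKM in CNT1-G283E. The groups did not overlap, and replicates were close together. The log2 fold change was -0.68 ± 0.068 (SE; limma adjusted p = 8.15e-05), a 1.68-fold lower mean. That fold is smaller than those of the other strip genes, and 10.6% of the genes tested had a lower log2 fold change. The ratio of summed CASP level to MYB36 level was 19.7 and 21.1 in CNT1, against 36.1 and 40.6 in CNT1-G283E.

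ESB1 (AT2G28670, chromosome 2, 12300265 to 12302358, minus strand) was read at 44.7 and 44.3 RPKM in CNT1, against 113 and 116 RPKM in CNT1-G283E. Its mean was 2.58-fold lower in CNT1, with a log2 fold change of -1.35 ± 0.040 (SE; limma adjusted p = 2.08e-07). The annotation places AT2G28671 on the opposite strand over 1772 bases of ESB1, and that row was read at 39.5 and 40.7 RPKM in CNT1, against 103 and 105 RPKM in CNT1-G283E. Use of strand in counting is not stated in the sources used here, and reads of the 2 genes cannot be told apart. PER64 (AT5G42180, chromosome 5, 16852628 to 16854224, plus strand, 4 exons) was read at 35.1 and 34.3 RPKM in CNT1, against 85.8 and 91.3 RPKM in CNT1-G283E. This was a 2.55-fold lower mean and a log2 fold change of -1.33 ± 0.047 (SE; limma adjusted p = 3.83e-07). The ratio of ESB1 to PER64 was 1.27 and 1.29 in CNT1, against 1.32 and 1.27 in CNT1-G283E, so the groups overlapped in it. AT5G42190 overlaps PER64 by 34 bases on the opposite strand and was not called (limma adjusted p = 0.788). CASP1 overlaps AT2G36090 by 49 bases, and CASP5 overlaps AT5G15300 by 4 bases, both also on opposite strands.

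Neither of the 2 suberin enzyme genes was called. The interval of CYP86A1 leaves room for modest changes in either direction, and that of GPAT5 mostly for a higher level in CNT1. GPAT5 (AT3G11430, chromosome 3, 3595694 to 3597952, plus strand) was read at 8.76 and 7.62 RPKM in CNT1, against 6.32 and 7.62 RPKM in CNT1-G283E. Replicate 2 of each group had the same value to 3 digits. The log2 fold change was 0.21 with a 95% interval of -0.04 to 0.46 (limma adjusted p = 0.128). Without CNT1-G283E replicate 2 the gene was called higher, at 0.33 (limma adjusted p = 0.0332). CYP86A1 (AT5G58860, chromosome 5, 23765791 to 23768111, minus strand) was read at 10.7 and 11.8 RPKM in CNT1, against 13.0 and 9.06 RPKM in CNT1-G283E. Both CNT1 values lie between the 2 CNT1-G283E values. The log2 fold change was 0.04 with a 95% interval of -0.29 to 0.37 (limma adjusted p = 0.805). It rested on which CNT1-G283E library was used, being 0.28 without replicate 1 (limma adjusted p = 0.0261) and -0.19 without replicate 2 (limma adjusted p = 0.0814). The intervals of both enzymes lie above those of all 7 strip genes, the highest of which is -0.83 to -0.52 for MYB36. The summed CASP level was 7.63 and 8.17 times the summed level of the 2 enzymes in CNT1, against 23.8 and 30.3 times in CNT1-G283E, and this difference was not tested.

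Over the 9 genes, 7 were called lower and none higher in CNT1, against 29.0% and 31.1% of all genes tested, and the median log2 fold change was -1.35, against 0.025 over all genes. The 0 called higher was also 0 at an unadjusted p under 0.05 in limma and 0 with limma-voom on the recovered reads. On the log2(RPKM + 1) scale 6 of the 9 were at least 2-fold lower and none at least 2-fold higher, against 5.25% and 3.93% of all genes, the exceptions being MYB36, GPAT5 and CYP86A1. The groups did not overlap in 8 of the 9, the exception being CYP86A1, against 80.9% of all genes, although for GPAT5 the gap was below the third digit.

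**Figure D3:**
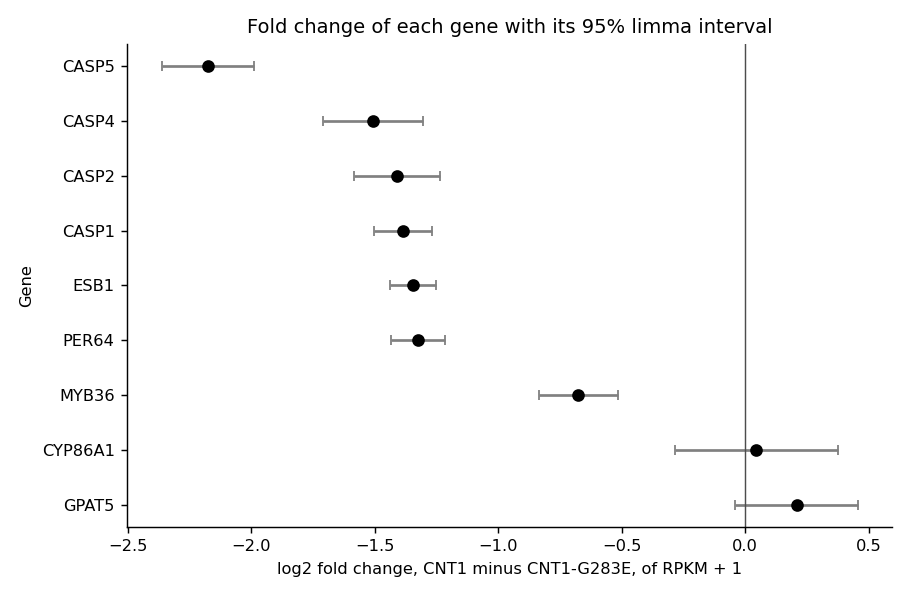
Log2 fold change of RPKM + 1, CNT1 minus CNT1-G283E (horizontal axis), of each of the 9 genes (rows), with its 95% interval from limma as bars. The interval of CASP5 (-2.36 to -1.99) lies below all others, that of MYB36 (-0.83 to -0.52) lies apart from the other strip genes, and those of GPAT5 and CYP86A1 include 0.

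Of the other genes of the Casparian strip, most were lower. Of 19 listed, 18 were tested, 13 were called lower and none higher, against 29.0% and 31.1% of all genes tested. At an unadjusted p under 0.05, and likewise with limma-voom, 15 were lower and 0 higher. The median log2 fold change was -0.85, and 7 were at least 2-fold lower on the log2(RPKM + 1) scale, against 5.25% of all genes. The dirigent-like gene AT3G55230 was read at 76.0 and 74.4 RPKM in CNT1, against 219 and 218 RPKM in CNT1-G283E, a 2.91-fold lower mean. A second dirigent-like gene, AT4G13580, was 2.77-fold lower, the peroxidase gene AT5G66390 was 2.30-fold lower, and UCC1, a copper-binding uclacyanin, was 2.24-fold lower. The 5 genes that were not called, named after their values were seen, were GSO1, a receptor kinase that surveys the strip, at -0.01 ± 0.078 (log2, SE), TPST, which sulfates peptide ligands, at -0.12 ± 0.064, the NADPH oxidase gene RBOH F (AT1G64060) at -0.21 ± 0.087, the peroxidase gene RCI3 at -0.08 ± 0.051 and AT5G50150 at -0.22 ± 0.087. RBOH F was called lower in 4 and AT5G50150 in 6 of 13 alternatives, limma-voom included, and RCI3 in 1, without CNT1-G283E replicate 1. In the other direction GSO2, called lower in the main fit at -0.391 and named after its values were seen, lost its call in 4 of 13 alternatives. Each of these left out 1 library, and its log2 fold change in them ran from -0.465 to -0.317. With an average of 5 RPKM required, 16 genes of the list were tested and 11 called lower. The gene below the filter was AT2G16385, under 0.5 RPKM in each library.

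Monolignol synthesis supplies the units of lignin for the strip and for xylem. All 13 genes of the list were called lower, against 29.0% of all genes tested, with a median log2 fold change of -0.58. On the log2(RPKM + 1) scale 1 was at least 2-fold lower, against 5.25% of all genes. FAH1, a ferulate hydroxylase named after its values were seen, lost its call when the filter was dropped and when replicate 2 of either group was left out. CAD5, a cinnamyl alcohol dehydrogenase, was read at 71.5 and 68.4 RPKM in CNT1, against 163 and 165 RPKM in CNT1-G283E. PAL1, which starts the phenylpropanoid pathway, was 1.67-fold lower, 4CL2, a coumarate ligase, 1.89-fold lower and CCR1, a cinnamoyl-CoA reductase, 1.51-fold lower. Markers of xylem, another lignified tissue, were lower too: XCP1 and XCP2, proteases of xylem vessels, were 1.85-fold and 1.77-fold lower. SUC2, a phloem marker of the same pericycle and stele list, was 1.55-fold lower. Of the 7 tested genes of that list, 6 were called lower and 1 was not called. The part of xylem in the monolignol values was not tested.

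Genes of endodermal identity and relatives of MYB36 were called in both directions. Of 13 genes listed, 10 were tested, of which 3 were called higher and 5 lower, against 31.1% and 29.0% of all genes tested, with a median log2 fold change of -0.16. SCR, which specifies the endodermis, was read at 19.7 and 20.3 RPKM in CNT1, against 17.6 and 18.2 RPKM in CNT1-G283E, a log2 fold change of 0.15 ± 0.056 (SE; limma adjusted p = 0.0480). That call was lost in 8 of 13 alternatives, with adjusted p-values of 0.0538 to 0.252. SHR, which moves from the stele to activate SCR, was 1.31-fold lower, and JKD, a zinc finger partner of both, was 1.20-fold higher. Among relatives of MYB36, MYB68 was higher, at 19.7 and 18.9 RPKM in CNT1, against 6.94 and 8.94 RPKM in CNT1-G283E. MYB84 was 2.17-fold lower and RAX2 1.86-fold lower. AT1G14580, annotated as a C2H2-like zinc finger protein, was 1.89-fold lower.

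Of 15 further genes of suberin synthesis and export, 6 were called higher and 3 lower, against 31.1% and 29.0% of all genes tested. Both directions together made a share near the 60.0% called over all genes. The list's median was 0.13 on the log2 scale, with no gene past 2-fold on the log2(RPKM + 1) scale. CYP86B1, an oxidase of very long fatty acids, was read at 7.63 and 7.73 RPKM in CNT1, against 4.27 and 4.73 RPKM in CNT1-G283E. GPAT7, a relative of GPAT5, was read at 2.71 and 2.79 RPKM in CNT1, against 1.28 and 1.17 RPKM in CNT1-G283E. RWP1, which adds ferulate to suberin, was 1.45-fold higher, and FACT, which makes caffeoyl esters of fatty alcohols, was 1.90-fold higher. The 3 called lower were the fatty acid elongase genes KCS1, KCS2 and KCS20, which were 1.96-fold, 1.51-fold and 1.27-fold lower, and these enzymes also make precursors of cuticular wax. With limma-voom 8 genes of this list were called higher and 5 lower, and with median-of-ratios scaling 6 higher and 5 lower.

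Transcription factors of suberin were low in level. Of 8 listed, 7 were tested, of which 3 were called higher and 2 lower, against 31.1% and 29.0% of all genes tested, with a median log2 fold change of 0.14. MYB41, which can switch on suberin synthesis, was read at 4.55 and 4.98 RPKM in CNT1, against 1.27 and 1.58 RPKM in CNT1-G283E, a log2 fold change of 1.25 ± 0.113 (SE; limma adjusted p = 4.38e-05). MYB9 was 1.29-fold higher. MYB92 was read at 6.62 and 6.65 RPKM in CNT1, against 12.3 and 12.2 RPKM in CNT1-G283E, and NAC046 was 1.70-fold lower. Without CNT1 replicate 1 the number called higher was 1.

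Relatives of the CASP genes, the CASP-like family, were mostly lower or not called. Of 35 loci that the annotation assigns by name or domain, 28 were tested, of which 2 were called higher and 16 lower, against 31.1% and 29.0% of all genes tested, with a median log2 fold change of -0.26. On the log2(RPKM + 1) scale 1 was at least 2-fold lower and 1 at least 2-fold higher, against 5.25% and 3.93% of all genes. The lower 1 was CASPL1D1, at 69.2 and 71.7 RPKM in CNT1, against 195 and 202 RPKM in CNT1-G283E, a 2.82-fold lower mean, within the range of the CASP genes. The higher 1 was CASPL1C1. CASPL4A4, among the 16 called lower, was read at 0.705 and 0.760 RPKM in CNT1, against 1.35 and 1.70 RPKM in CNT1-G283E. It reached 1 RPKM in CNT1-G283E only, so it entered the test only because it was lower in CNT1. Its call therefore says nothing about the direction of the family. CASPL2C1, CASPL4B1 and CASPL1E1 were 1.87-fold, 1.94-fold and 1.56-fold lower. CASPL5A1 was 1.72-fold higher and CASPL1C1 2.43-fold higher, CASPL1C1 being at 6.73 and 6.11 RPKM in CNT1, against 3.21 and 2.07 RPKM in CNT1-G283E.

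**Figure D4:**
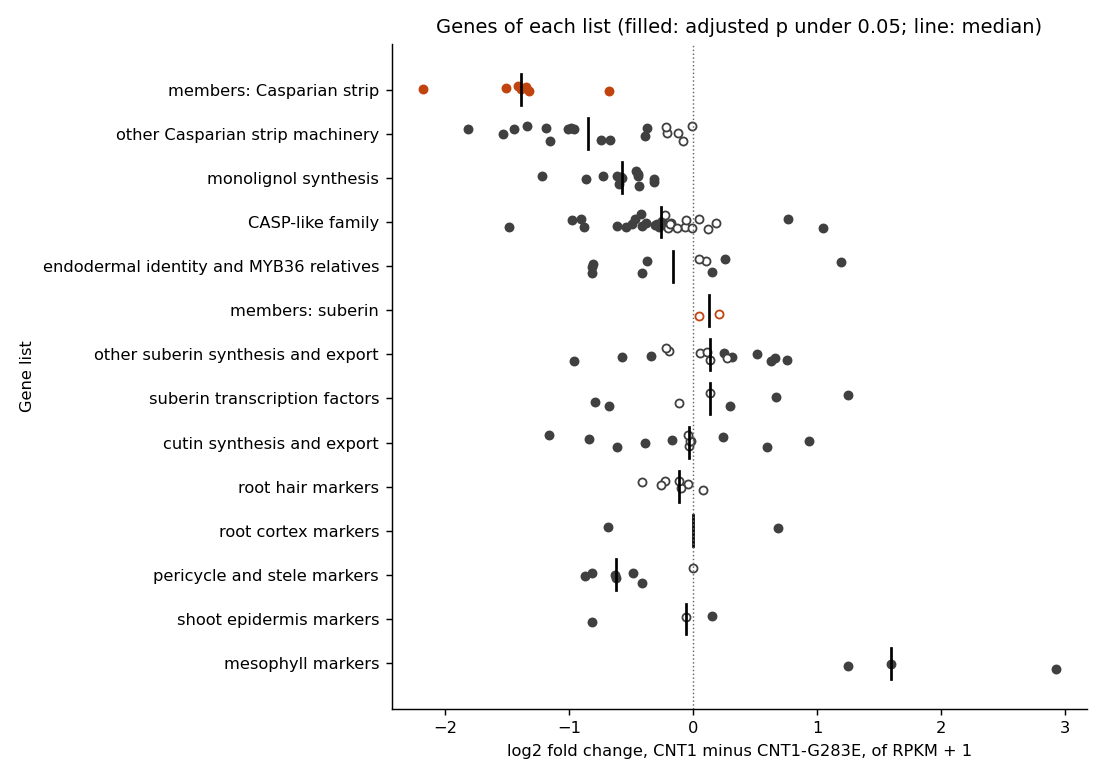
Log2 fold change of RPKM + 1, CNT1 minus CNT1-G283E (horizontal axis), of every tested gene in each list (rows), with the 9 genes in orange in the rows named members. Filled points have a limma adjusted p under 0.05, open points do not, and black lines are list medians, which run from -1.39 in the strip genes of the 9 to 1.59 in the mesophyll markers.

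Marker genes of other cell types give the setting in which these changes were measured. Root hair markers were not called in either direction, while 60.0% of all genes tested were called. The count was 0 of 7 in limma and in limma-voom, and 1 was lower at an unadjusted p under 0.05 in limma. Their median log2 fold change was -0.11, and their summed level was 36.1 and 33.9 RPKM in CNT1, against 32.5 and 46.9 RPKM in CNT1-G283E. Without CNT1-G283E replicate 1, 3 of them were called lower, and without CNT1-G283E replicate 2, 1 was called higher. PRP3, a wall protein of root hairs, was read at 19.8 and 18.5 RPKM in CNT1, against 16.4 and 25.6 RPKM in CNT1-G283E. Of 2 cortex markers, AT1G09750 was lower and AT1G62500 higher. Of 7 tested pericycle and stele markers, 6 were called lower, against 29.0% of all genes tested. The median was -0.62, and the summed level of the list was 244 and 246 RPKM in CNT1, against 421 and 405 RPKM in CNT1-G283E. The 6 root cap and root meristem markers and the 3 seed coat markers did not pass the filter, and none was 0 in every library. The root cap and meristem markers summed to 3.32 and 2.73 RPKM in CNT1, against 1.97 and 3.41 RPKM in CNT1-G283E, and the seed coat markers to 0.71 and 0.53 RPKM in CNT1, against 0.47 and 0.42 RPKM in CNT1-G283E. The 3 mesophyll markers (RBCS1A, CAB3 and RCA, of photosynthesis) were called higher, against 31.1% of all genes tested. Their summed level was 7994 and 7922 RPKM in CNT1, against 2264 and 2363 RPKM in CNT1-G283E. The part of organ or tissue proportions in the values of the strip genes was not tested.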

How the data were processed

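The authors deposited 1 table of RPKM per library, with 1 gene model per locus, per the file headers. Bowtie2 2.2.2 and the build TAIR10 are named in the submitters' processing notes. How reads were assigned to genes is not given in the sources used here. Values were tested as log2(RPKM + 1), for genes reaching 1 RPKM in 2 or more libraries, with limma 3.58.1 in R 4.3.3 (group as the only term, intensity trend, Benjamini-Hochberg adjustment over 19201 genes), with calls at adjusted p under 0.05. Adding 1 shrinks the log2 fold changes of low genes, while folds quoted as such are ratios of mean RPKM. Depths were recovered from the steps of the values: 99.98% of the 24360 rows above 0 gave whole reads within 0.001 reads in all 4 libraries, at a length fitted per gene. For the 9 genes the fitted lengths were 609 to 1929 bases. None was longer than the annotated transcript, but the fit preferred such lengths, so this is no check of the reads. The fit was first tested on simulated counts with known changes. That simulation changed far fewer genes than were called here and used a spread set beforehand, so it is no check of these calls. Intervals of reads cover counting error only.

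Names and coordinates are from the TAIR10.1 RefSeq annotation, and the files give none of their own. Genes named besides the 9 were CRY1, up to 4 called genes per direction and pathway list by adjusted p averaging 1 RPKM or more, and up to 3 markers per list by mean level. Named outside that rule are genes overlapping the 9, uncalled or untested genes of the strip list, GSO2, FAH1, MYB39, CASPL4A4 and GPAT4. All of these were chosen after their values were seen. The 9 genes and all lists were chosen with earlier results of these data known, and no list was tested as a set. 1 further gene is not reported here. The CASP-like list includes AT1G79770, a DUF1677 protein whose description names it so. Protein sequences were not used here, so identity was computed on coding bases (global alignment, biopython 1.88, matches over alignment columns). Tables were handled with Python 3.11.15 and pandas 2.3.3.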

Additional observations from a re-analysis of the deposited data

How the results depend on the processing

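The 13 alternatives were 3 other scalings, dropping the filter, requiring an average of 5 RPKM, a pseudocount of 0.1, no intensity trend, limma-voom on recovered reads, the replicate number as a block, and leaving out each library. Under all 13 the same 7 strip genes were called lower, with adjusted p-values up to 0.00075, and the median log2 fold change of the 9 genes ran between -1.37 and -1.31. The number of the 9 called higher was 0 to 1 when a library was left out (CYP86A1 or GPAT5, without 1 CNT1-G283E library). CYP86A1 ran between -0.1939 and 0.2826, turning to -0.0159 without CNT1 replicate 2 and to -0.19 without CNT1-G283E replicate 2. In suberin synthesis and export 6 genes were called higher and 5 lower with median-of-ratios scaling, and 8 higher and 5 lower with limma-voom. With an average of 5 RPKM required, which tests fewer genes, 3 genes of endodermal identity were called lower, 0 suberin factors higher and 1 CASP-like gene higher. Suberin factors called higher numbered 1 to 2 when a library was left out. Over the whole table, 4355 to 5929 genes were called higher and 4538 to 5272 lower when a library was left out. Replicates of the same number did not deviate together (r = -0.023 across 19201 genes), so the number was not taken as a pairing; with the replicate block 7 of the 9 genes were called lower and 0 higher, and 5791 genes higher and 5423 lower in all. Depth limits the genes under 1 RPKM, which were not tested.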

Other observations

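Cutin, the polyester of the shoot surface, is made by close relatives of GPAT5 and CYP86A1, and those relatives were measured too. Of 14 genes of cutin synthesis and export, 12 were tested, of which 3 were called higher and 5 lower in CNT1, against 31.1% and 29.0% of all genes tested, with a median log2 fold change of -0.04. CYP86A2, a fatty acid oxidase of the same subfamily as CYP86A1, was read at 113 and 114 RPKM in CNT1, against 267 and 244 RPKM in CNT1-G283E, a 2.25-fold lower mean. GPAT8, an acyltransferase of cutin, was read at 24.6 and 25.2 RPKM in CNT1, against 47.8 and 43.2 RPKM in CNT1-G283E. CYP86A4 was 1.60-fold lower and the transporter gene ABCG11 1.32-fold lower. PEL3, an acyltransferase of cutin, was 2.34-fold higher, at 5.26 and 4.79 RPKM in CNT1, against 2.05 and 2.25 RPKM in CNT1-G283E. LACS2, an acyl-CoA synthetase, was 1.55-fold and HTH 1.19-fold higher. In the same libraries the shoot epidermis markers were divided, with PDF1 1.77-fold lower, ATML1 at 0.15 ± 0.049 and KCS10 at -0.06 ± 0.037 (log2, SE), and ATML1 was not called without either CNT1 library, without CNT1-G283E replicate 2, with median-of-ratios scaling or without the trend.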
